A study of Mus musculus with 7 samples.

Results

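The genes described here are 41 genes of inflammatory signalling in mouse liver: interleukins and tumour necrosis factor, chemokines, their receptors, the subunits of the transcription factor NF-kB, its feedback inhibitors and 2 adhesion molecules. They were taken by symbol from a list of names, with no threshold on a measured value, and the list was drawn up with earlier results of these data known. Of the 41, 39 were found among the 14889 genes of the count table and 38 passed the filter on low counts, which left 13693 genes for the test. Il6 and Cxcl13 were not analysed here, and Ccl7 was below the filter. Livers came from 4-month-old ApoE-/- mice of strain C57BL/6, all fed a Western diet for 3 months. ApoE-/- mice lack apolipoprotein E, clear lipoprotein remnants poorly and are a model of high cholesterol and atherosclerosis. Saline was injected intraperitoneally in 4 of them and PX-478, an inhibitor of the hypoxia factor HIF-1α, at 40 mg/kg in 3, on a schedule given as bi-weekly. All mice shared the genotype and the diet, so no wild-type or chow-fed level is given. The deletion is carried by every cell of the animal, and whole liver was extracted, so each value is an average over all its cell types.

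Chemokines are small secreted proteins that attract leukocytes by binding receptors on them, and are grouped as CC or CXC by the spacing of their conserved cysteines. Interleukin-1, tumour necrosis factor and Toll-like receptor ligands act on receptors whose signal frees NF-kB dimers from inhibitor proteins, and the dimers then bind short kappa-B elements in the promoters of chemokine, adhesion molecule and inhibitor genes. The inhibitors encoded by Nfkbia and Tnfaip3 are themselves such targets, which closes a negative feedback loop. In the liver, Kupffer cells and recruited monocytes are known as main sources of cytokines, and hepatocytes, endothelial cells and stellate cells also respond to and make them.

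The kappa-B element can be read in the promoters of several members. RefSeq windows on GRCm38.p6, which shares its coordinates with mm10, were matched by symbol for 29 of the 41 members. In the 250 bases before a transcription start, letters that match the kappa-B consensus on either strand were found in 10 of the 29 (34.5%), against 1204 of 27025 genes with a window (4.46%). The 10 were Ccl9, Cxcl1, Cxcl2, Il1r1, Il6, Nfkb2, Nfkbia, Nlrp3, Tlr2 and Tnfaip3. The list was made of genes of this pathway, with known NF-kB targets among them, so a share above the background was built into the choice. Overlapping matches were counted as 1. A match of letters is a description of the sequence and not a bound site. Shown here are the neutrophil chemokine pair and the NF-kB genes that the later values refer to, 5′ to 3′ on the strand of the gene, with the letters of the match in question in capitals.
Cxcl1, chr5:90891149-90891209 (+): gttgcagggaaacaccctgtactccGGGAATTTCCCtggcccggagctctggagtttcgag
Cxcl2, chr5:90903777-90903837 (+): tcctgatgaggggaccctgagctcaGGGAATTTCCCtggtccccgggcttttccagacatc
Nfkb2, chr19:46304673-46304733 (+): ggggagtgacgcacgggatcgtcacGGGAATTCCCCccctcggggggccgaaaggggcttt
Nfkbia, chr12:55492648-55492701 (-): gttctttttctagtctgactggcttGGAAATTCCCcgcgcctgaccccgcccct
Tnfaip3, first match, chr10:19015501-19015560 (-): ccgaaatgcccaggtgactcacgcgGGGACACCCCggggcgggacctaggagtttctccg
Tnfaip3, second match, chr10:19015411-19015447 (-): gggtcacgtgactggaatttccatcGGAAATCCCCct
The matches begin 71 bases before the start in Cxcl1, 97 in Cxcl2, 39 in Nfkb2 and 29 in Nfkbia, and in Tnfaip3 at 125 and 12. Nfkb2, which has windows for several starts, holds further matches at 11, 225 and 236 bases before a start, not printed here, and the first of these begins in the last letters of its printed stretch. Cxcl1 and Cxcl2, a tandem pair of paralogs on chromosome 5 with 10777 bases between them, carry the same 11 letters. The letters ACGTG or GCGTG, the core of the element that HIF-1 binds, searched on both strands, were found in 12 of the 29 members (41.4%) and in 41.5% of all genes with a window, so the members are close to the background in that respect.

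Most members had a lower mean level in the PX-478 livers than in the saline livers, and no single one passed the test. By edgeR's quasi-likelihood F test, fitted over all genes and adjusted by Benjamini-Hochberg at a threshold of 0.05, 0 of 38 members were called in either direction, against 0.0073% of all genes called lower and 0% called higher. The smallest adjusted p of a member was 0.515, for Ccl6. DESeq2 and limma-voom also called 0 members. DESeq2 called 46 genes higher (0.336%) and 37 lower (0.27%) over the whole table. Of the 38, 28 had a log2 ratio of PX-478 to saline (log2 change) below 0 (73.7%) and 10 above, against 50.3% below 0 among all genes tested, with a median of -0.25 against 0. When libraries were scaled by their totals alone, the median of all genes stood at 0.15 and 24 of 38 members were below 0, with a median of -0.09. An unadjusted p under 0.05 was reached by 2 members that were lower, Ccl3 and Ccl6, and by 1 that was higher, Ccl24. In each direction 3.48% of all genes reached it. The groups did not overlap for Ccl3, Ccl6 and Tnfaip3, all lower with PX-478 (4.29% of all genes), and for 0 members that were higher (4.3% of all genes). In whole liver, fewer cells of a type and less RNA per cell cannot be told apart.

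The levels of many members differed among mice of 1 group. The 95% interval of the log2 change held 0 for 35 of the 38 members, and the standard error exceeded the estimate for 20. Interval and standard error were derived from the F statistic of the test, so these 2 counts restate its p-values. In 37 of the 38 the highest saline library stood further above the lowest than the groups' means stood apart. The share over all genes was not computed, so this count has no background to be read against. The median of that ratio of highest to lowest saline library was 2.1, and for Il1b it reached 8.87. In 9 members the PX-478 libraries spread further than the saline ones, among them Ccl3, Ccl4, Ccl24 and Il1rn. Leaving out 1 library moved the log2 change by over 1.5 times in 36 of the 38, all but Ccl2 and Ccl6. This measure is relative, so a small shift suffices for estimates near 0, such as Il15 (-0.03) and Birc3 (0.05). Its share over all genes was not computed either. Nothing in the labels says whether cages, days or extractions were shared, so a p-value here weighs a difference against the spread of these 7 samples.

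**Figure D1:**
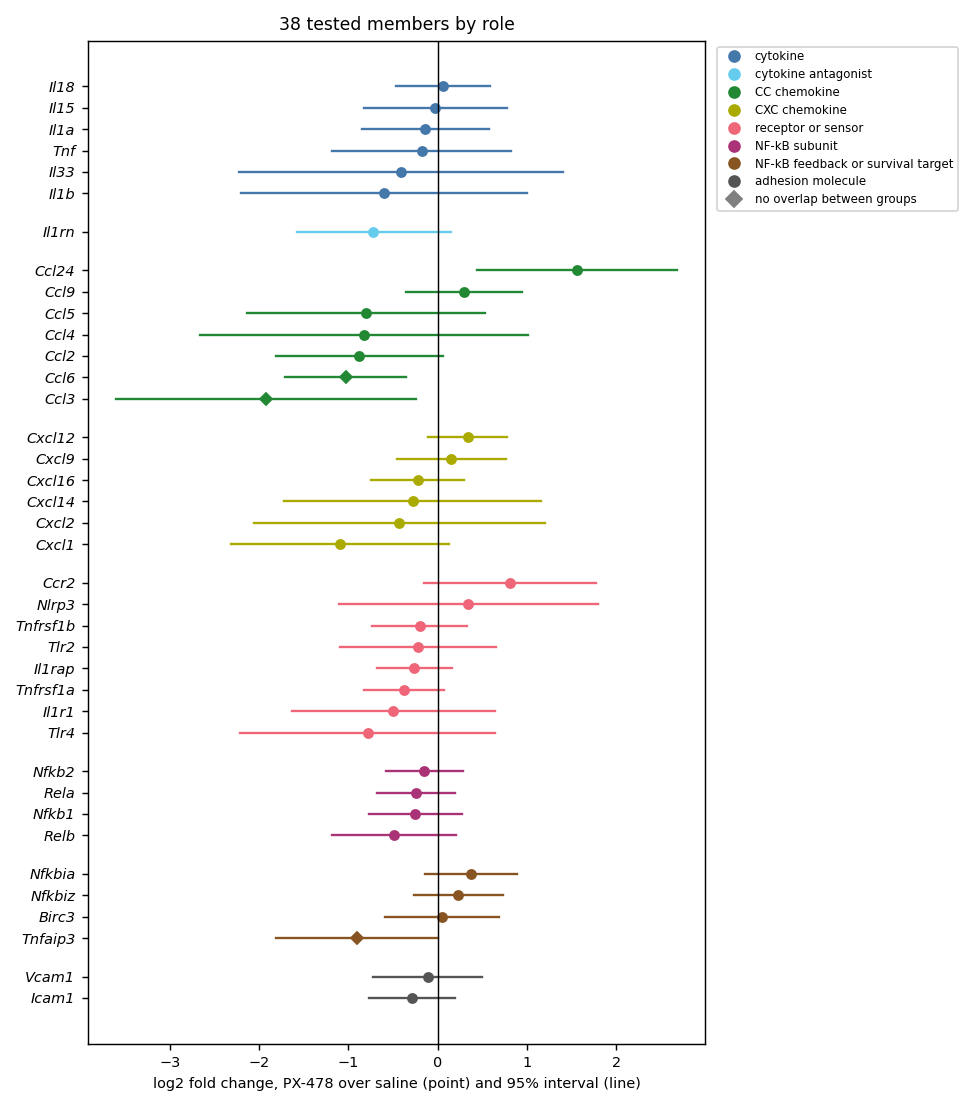
Log2 change, the log2 ratio of PX-478 to saline (point, x axis) with its 95% interval (line) for the 38 tested members, grouped by role. The intervals of Ccl3, Ccl6 and Ccl24 lie away from 0, the other 35 hold 0, and diamonds mark the 3 members whose groups did not overlap.

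The authors' deposited table gives an unadjusted p per gene from their own edgeR test. By the authors' deposited table, lower values were given for 10 of the 39 members at a p under 0.05, against 13.1% of all genes, and higher ones for 4, against 12.9%. Those listed as lower in the authors' deposited table were the chemokines Ccl2, Ccl3, Ccl6 and Cxcl1, the antagonist Il1rn, the receptors Tlr4, Tnfrsf1a and Il1rap, the subunit Relb, and Tnfaip3. The higher ones in the authors' deposited table were Ccl24, Cxcl12, Ccr2 and Nfkbia. The table holds 2 nearly identical count columns for each sample, averaged here into 1 library. All 14 columns also entered edgeR's test as libraries, an alternative added after seeing the data in which each mouse counts more than once. In that fit 10 members were lower and 4 higher at an unadjusted p under 0.05. The share of all genes at that unadjusted level was not computed for it. That fit called Ccl6 (adjusted p = 0.00323), Ccl3 (0.0148), Ccl24 (0.0153) and Tnfaip3 (0.0413), while it called 4.71% of all genes higher and 5.25% lower.

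The CC chemokines held the members with the widest differences. Of the 7 tested, 5 were lower and 2 higher, with a median log2 change of -0.83, and for the 13 chemokines of both classes the counts were 9 and 4 with a median of -0.43. Ccl6 is a CC chemokine made by macrophages and other myeloid cells. Its saline libraries 1 to 4 held 5.73, 8.85, 12.2 and 10.1 reads per megaread counted (CPM, scaled by trimmed mean of M-values), and its PX-478 libraries 1 to 3 held 5.02, 4.61 and 3.92. Every PX-478 library was below every saline library, although Saline 1 and PX-478 1 stood close together. The means were 9.24 ± 2.72 (SD, n = 4) and 4.52 ± 0.557 (SD, n = 3) CPM, a log2 change of -1.03 (SE 0.31), or 2.05-fold lower, with an adjusted p of 0.515 by edgeR. In every one of the 17 alternatives the estimate was between -1.21 and -0.87, with an unadjusted p under 0.05 and an adjusted p between 0.00323 and 1.

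Ccl9, another myeloid CC chemokine, lies 9249 bases from it on chromosome 11 and had a log2 change of 0.29 (SE 0.30). The number of Ccl6 reads per Ccl9 read was 0.647, 1.52, 0.959 and 1.05 in saline 1 to 4 and 0.643, 0.321 and 0.33 in PX-478 1 to 3. These ratios are taken within a library and do not depend on its depth or scaling. The ratio was lowest in all 3 PX-478 libraries. PX-478 1, with 72 and 112 reads of Ccl6 and Ccl9, was just under Saline 1, with 88 and 136. The pairs for such ratios were not fixed in advance. The other ratios computed overlapped between the groups, among them Ccl3 per Ccl4 read (1 to 3.5 in saline, 0.222 to 2.6 in PX-478). The sources used here do not say how reads that fit related genes were counted.

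Ccl3, which encodes macrophage inflammatory protein 1-alpha, was covered by few reads. It had 28, 13, 32 and 28 reads in saline 1 to 4 and 13, 4 and 2 in PX-478 1 to 3, which correspond to 1.82, 1.13, 2.12 and 1.75 CPM and to 0.906, 0.303 and 0.131 CPM. The groups did not overlap on the CPM scale, and PX-478 3 was below the floor of 3 reads. The log2 change was -1.92 (SE 0.78, adjusted p = 0.66 by edgeR), -2.95 without PX-478 1 and -1.48 without PX-478 3. Its neighbour Ccl4, macrophage inflammatory protein 1-beta, held 8, 13, 26 and 18 saline reads and 5, 18 and 3 PX-478 reads, with overlapping groups and a log2 change of -0.83 (SE 0.85), or -2.02 without PX-478 2 and -0.40 without PX-478 3. The RefSeq spans of Ccl3 and Ccl4 share 755 bases.

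Ccl24, eotaxin-2, attracts eosinophils through the receptor CCR3 and went the other way. It stood at 1.04, 1.3, 1.45 and 3.32 CPM in saline 1 to 4 and at 4.6, 2.5 and 8.74 CPM in PX-478 1 to 3, from 15 to 53 and 33 to 134 reads. The groups overlapped through Saline 4 and PX-478 2. The log2 change was 1.56 (SE 0.52, adjusted p = 0.568 by edgeR), with 0.99 when PX-478 3 was left out and 2.06 when Saline 4 was.

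The monocyte attractant Ccl2 held 2.47, 5.9, 7.67 and 5.95 CPM in saline 1 to 4 and 1.81, 3.18 and 3.98 CPM in PX-478 1 to 3. Saline 1 lay among the PX-478 libraries and the other 3 saline libraries lay above them, at a log2 change of -0.88 (SE 0.43, adjusted p = 0.73 by edgeR). For Ccl5, a T cell attractant, the estimate of -0.80 (SE 0.61) rested on single libraries. It was -0.12 without Saline 4, which held 11 CPM, and -1.62 without PX-478 2. Ccl7, another monocyte attractant next to Ccl2, had 5, 6, 0 and 10 reads in saline and 7, 12 and 0 in PX-478, and was too low to test. With PX-478, the receptor for Ccl2 and Ccl7, Ccr2, had a higher mean, as described with the receptors.

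**Figure D2:**
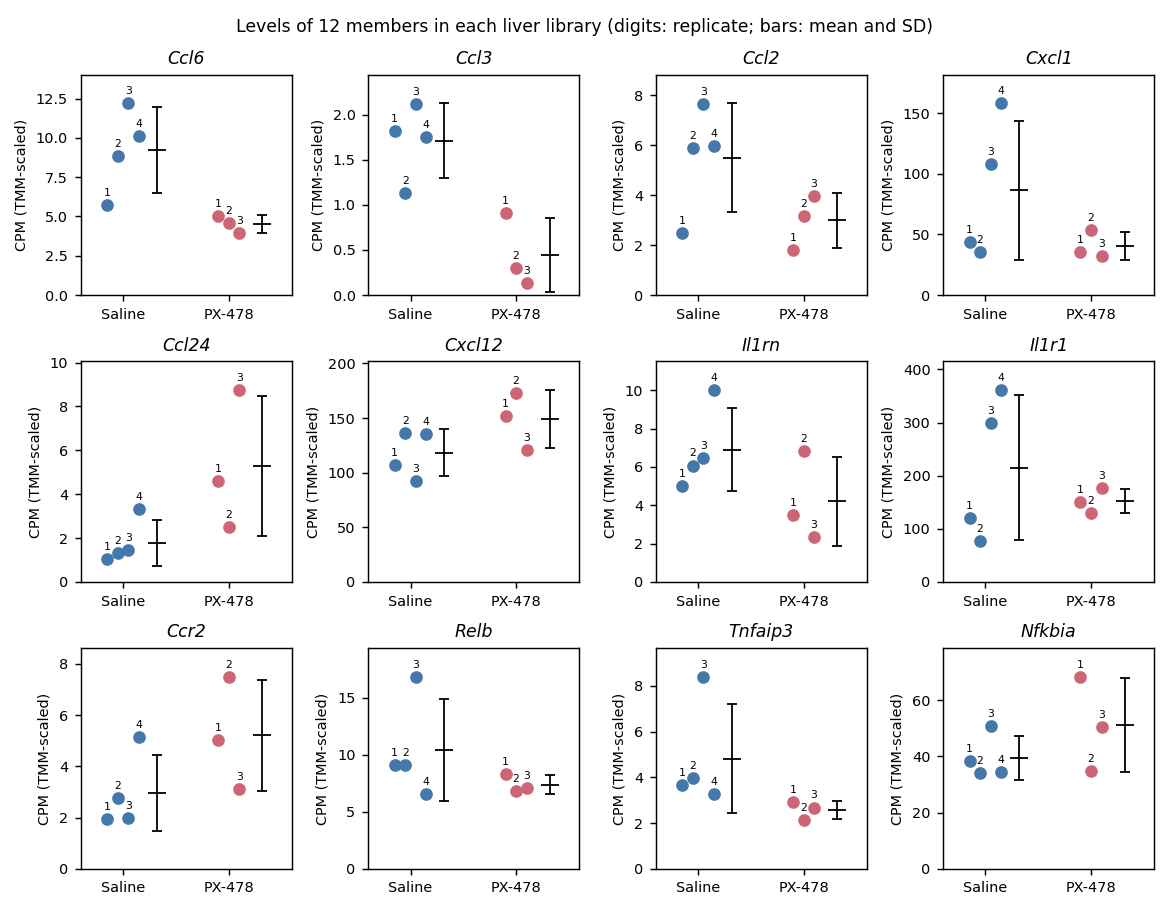
Levels of 12 members in CPM (y axis, from 0) in each liver library, with digits for the replicate and bars for the mean and SD of 4 saline and 3 PX-478 libraries. The groups are apart for Ccl6, Ccl3 and Tnfaip3, while Cxcl1 and Il1r1 are high in Saline 3 and Saline 4 alone.

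Of the 6 CXC chemokines tested, 4 were lower and 2 higher, with a median log2 change of -0.25. Cxcl1 is a neutrophil attractant and a classical NF-kB target. Over all libraries it had the highest mean level of the members per length of exon, at 35.6 RPKM. RPKM is reads per kilobase of exon and per megaread, with exons merged over all GENCODE M21 transcripts of a gene. Ranks depend on these lengths, which were 1875 bases for Cxcl1 and 8176 for Cxcl12. In CPM, Cxcl12 had higher means than Cxcl1, at 118 against 86.3 in saline and 149 against 40.6 in PX-478. The saline means were 46 RPKM for Cxcl1, 33.8 for Il1r1 and 24.5 for Nfkbia. In the PX-478 group the mean of Cxcl1, at 21.7 RPKM, was below those of Nfkbia (31.7) and Il1r1 (23.9). Cxcl1 held 44, 35.7, 108 and 158 CPM in saline 1 to 4 and 35.7, 53.7 and 32.3 CPM in PX-478 1 to 3. Saline 1 and Saline 2 lay within the range of the PX-478 libraries, and Saline 3 and Saline 4 were well above it. The log2 change was -1.09 (SE 0.53, adjusted p = 0.736 by edgeR), and -0.63 without Saline 4. Cxcl2, its tandem paralog with the same kappa-B letters, held only 6 to 38 reads, with overlapping groups and a log2 change of -0.43 (SE 0.75), or -1.28 without PX-478 1 and -0.04 without Saline 4.

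Cxcl12, the ligand of CXCR4 that retains leukocytes and progenitors in tissues, is made by stromal and endothelial cells. It stood at 107, 136, 92.5 and 135 CPM in saline 1 to 4 and at 152, 173 and 121 CPM in PX-478 1 to 3. Its groups overlapped only through PX-478 3, and the log2 change was 0.34 (SE 0.21, adjusted p = 0.78 by edgeR). Within a library, the reads of Cxcl1 per read of Cxcl12 were 0.411, 0.263, 1.17 and 1.16 in saline and 0.235, 0.31 and 0.268 in PX-478, so the 2 saline libraries that were high in Cxcl1 stood apart from all 5 others. For the lymphocyte attractants the estimates were small: 0.15 for Cxcl9 and -0.22 for Cxcl16. Cxcl14, a chemokine of epithelia, stood at -0.28. Exons of Cxcl16 overlap those of Zmynd15 on the other strand over 18.3% of their length, and the use of strand in counting is not stated.

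Among the cytokines themselves, 5 of 6 were lower with a median log2 change of -0.16, and none stood apart from its spread. Il1b, the secreted form of interleukin-1 that inflammasomes activate, held 2.93, 2.26, 0.33 and 1.13 CPM in saline 1 to 4 and 0.697, 1.13 and 1.44 CPM in PX-478 1 to 3. The PX-478 libraries lay inside the saline range, from 5 to 45 reads, with a log2 change of -0.60 (SE 0.74, adjusted p = 0.891 by edgeR), or -0.94 without Saline 3 and -0.17 without Saline 1. Il33, an alarmin released from damaged cells, had 10, 18, 9 and 10 reads in saline and 3, 14 and 10 in PX-478, at a log2 change of -0.41 (SE 0.83, adjusted p = 0.936). For Tnf, which had 20 to 45 reads, the value was -0.18, and for Il1a it was -0.14. Il18 and Il15, which support T and NK cell responses, stood at 0.06 and -0.03.

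Il1rn encodes the antagonist that occupies the interleukin-1 receptor without signalling, and is also an acute phase product of hepatocytes. It held 5.01, 6.07, 6.48 and 10 CPM in saline 1 to 4 and 3.48, 6.81 and 2.35 CPM in PX-478 1 to 3. PX-478 2 lay above 3 of the 4 saline libraries, and the other PX-478 libraries lay below all of them. The log2 change was -0.72 (SE 0.40, adjusted p = 0.766 by edgeR), or -1.24 without PX-478 2 and -0.43 without PX-478 3.

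Of the 8 receptors and sensors, 6 were lower and 2 higher, with a median log2 change of -0.24. Ccr2, which brings monocytes from bone marrow and blood to sites of Ccl2, held 1.95, 2.78, 1.98 and 5.14 CPM in saline 1 to 4 and 5.02, 7.49 and 3.13 CPM in PX-478 1 to 3. Without Saline 4 the groups would not overlap, and with all libraries the log2 change was 0.81 (SE 0.44, adjusted p = 0.759 by edgeR). It was 1.22 without Saline 4 and 0.45 without PX-478 2. Tnfrsf1a, the main receptor of tumour necrosis factor, stood at 52, 43.2, 43.8 and 64.6 CPM in the saline livers and at 31.6, 42.5 and 43.6 CPM in the treated ones, with a log2 change of -0.38 (SE 0.21, adjusted p = 0.759). PX-478 3 reached the lower end of the saline range, and the other PX-478 libraries lay below it. For Tnfrsf1b, the other receptor of that ligand, the value was -0.20.

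Il1r1, the signalling receptor for interleukin-1, was second in mean level per length of merged exons over all libraries (29.5 RPKM). It is shown because of its spread, chosen after its values were seen. It held 121, 77.1, 299 and 361 CPM in saline 1 to 4 and 150, 130 and 176 CPM in PX-478 1 to 3. The PX-478 libraries lay between the low and the high pair of saline libraries, and the log2 change was -0.50 (SE 0.50), or -0.78 without Saline 2 and -0.12 without Saline 4. Il1rap, the accessory chain that the receptor needs to signal, varied less, from 63.5 to 109 CPM, with -0.26 (SE 0.19). The reads of Il1r1 per read of Il1rap were 1.38, 0.997, 2.75 and 5.03 in saline and 2.01, 2.05 and 2.25 in PX-478. The Toll-like receptors Tlr4, which senses endotoxin, and Tlr2, which senses bacterial lipoproteins, stood at -0.78 (SE 0.66) and -0.22 (SE 0.40). Nlrp3, the inflammasome sensor, stood at 0.34 (SE 0.67).

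All 4 NF-kB subunit genes had log2 changes below 0, from -0.49 to -0.15, with standard errors of 0.20 to 0.32. Relb, the partner of p52 in the alternative pathway, held 9.12, 9.11, 16.8 and 6.52 CPM in saline 1 to 4 and 8.29, 6.81 and 7.05 CPM in PX-478 1 to 3. Saline 3 was the highest and Saline 4 the lowest of all 7, and the log2 change was -0.49 (SE 0.32, adjusted p = 0.792 by edgeR), or -0.16 without Saline 3. Rela, the transactivating p65 subunit, stood at 66, 45.6, 65.6 and 47.9 CPM in the saline livers and at 41.4, 53.9 and 47.5 CPM in the treated ones, with a log2 change of -0.24 (SE 0.20, adjusted p = 0.846). The saline libraries of Rela formed a high and a low pair, and the low pair lay within the PX-478 range. Nfkb1 and Nfkb2, the precursors of p50 and p52, stood at -0.25 and -0.15. When libraries were scaled by totals alone, Nfkb2 stood at 0.01, and its exons overlap those of a long noncoding RNA over 11.6% of their length and those of Psd over 6.52%, both on the other strand.

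The feedback and survival targets of NF-kB did not share a direction: 1 was lower and 3 were higher, with a median log2 change of 0.14. Tnfaip3 encodes A20, a ubiquitin-editing enzyme that shuts off signalling to NF-kB. It held 3.65, 3.99, 8.39 and 3.26 CPM in saline 1 to 4 and 2.93, 2.12 and 2.68 CPM in PX-478 1 to 3. All PX-478 libraries were below all saline libraries, by a narrow margin between PX-478 1 and Saline 4. The log2 change was -0.90 (SE 0.42, unadjusted p = 0.0506 and adjusted p = 0.719 by edgeR), and -0.49 without Saline 3.

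Nfkbia encodes IκBα, which holds NF-kB dimers in the cytoplasm. It stood at 38.3, 34.2, 51 and 34.3 CPM in saline 1 to 4 and at 68.3, 34.8 and 50.4 CPM in PX-478 1 to 3. Each group reached from about the same low level upwards, and the log2 change of 0.37 (SE 0.24, adjusted p = 0.791 by edgeR) was 0.11 without PX-478 1. Nfkbiz, a nuclear IκB protein that assists transcription of secondary targets, stood at 0.23, and Birc3, which encodes the survival protein cIAP2, stood at 0.05.

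Both adhesion molecules, which endothelium displays to bind leukocytes, had overlapping groups. Icam1 held 42.9, 49.3, 70.2 and 66.5 CPM in saline 1 to 4 and 43.5, 39.8 and 57 CPM in PX-478 1 to 3, at a log2 change of -0.29 (SE 0.22, adjusted p = 0.825 by edgeR). Vcam1 held 11.1, 13.1, 22.2 and 14.7 CPM in saline and 16.3, 16.5 and 9.66 CPM with PX-478, at -0.11 (SE 0.28, adjusted p = 0.953). Without 1 library the estimate for Icam1 ranged from -0.46 to -0.18, and that for Vcam1 from -0.24 to 0.12. An antisense gene covers 11.7% of the exon length of Icam1.

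Members with and without kappa-B letters had like medians. Of the 9 tested members with such letters, 6 were lower and 3 higher, with a median log2 change of -0.22, and of the 18 whose window lacks them, 13 were lower and 5 higher, with a median of -0.25. For ACGTG or GCGTG the counts were 10 lower and 1 higher of 11 with the letters (median -0.29), and 9 lower and 7 higher of 16 without (median -0.16). The difference between these medians was not tested. The share of lower genes among all genes with or without such letters was not computed.

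Other genes of the pathway were counted from lists. One list covered NF-kB, Toll-like receptor, interleukin-1 and tumour necrosis factor signalling. It held adaptors, kinases and ubiquitin enzymes, and also inhibitor proteins and inflammasome genes. Of its 43 tested genes, 22 were lower and 21 higher (median log2 change -0.02). By edgeR's test 0 were called, and 1 had an unadjusted p under 0.05. It was Map3k14, the kinase NIK of the alternative pathway, at 5.53 ± 1.95 CPM (SD, n = 4) in saline and 2.99 ± 0.724 CPM (SD, n = 3) in PX-478, a log2 change of -0.89 (SE 0.38, adjusted p = 0.691). The next were the deubiquitinase Cyld at 0.42 (SE 0.23) and Rbck1, a subunit of the linear ubiquitin ligase, at 0.28 (SE 0.19). Without PX-478 3 these stood at 0.23 and 0.11.

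Of 16 tested cytokine receptors and decoys, 8 were lower and 8 higher (median 0.02), and edgeR called 0, with 1 at an unadjusted p under 0.05. It was Ifngr2, the second chain of the interferon-gamma receptor. Its saline libraries held 11.2, 10.8, 12.8 and 9.9 CPM and its PX-478 libraries 6.69, 7.72 and 7.31, without overlap, at a log2 change of -0.63 (SE 0.23, adjusted p = 0.607). Il15ra and Il6ra, receptor chains for interleukins 15 and 6, stood at 0.46 and 0.58, with 0.31 to 0.67 and 0.34 to 0.99 when 1 library was left out.

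Of 11 tested chemokine receptors and scavengers, 8 were lower and 3 higher (median -0.36), with 0 called by edgeR and 0 at an unadjusted p under 0.05. Cxcr4, the receptor of Cxcl12, had 78, 77, 108 and 59 reads in saline and 25, 58 and 2 in PX-478, at a log2 change of -1.44 (SE 0.73, adjusted p = 0.736), or -2.59 without PX-478 2 and -0.88 without PX-478 3. Ackr3, a scavenger of the same ligand, held 0 to 32 reads, with -1.75 (SE 1.03), or -2.70 without PX-478 2 and -1.16 without PX-478 3, and the third, Cxcr5, stood at -0.49, or -0.75 without PX-478 2. Of 39 other chemokines and cytokines on a list, 15 were tested, 7 lower and 8 higher (median 0.06), with 0 called by edgeR and 0 at an unadjusted p under 0.05. The 3 with the smallest p there were the macrophage growth factor Csf1 at 0.35, Tnfsf10 at 0.57 and Ccl27a at 0.21. Without 1 library these ranged from 0.21 to 0.51, from 0.29 to 0.76 and from 0.12 to 0.37.

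Libraries held 10285776 to 17257304 counted reads, and mitochondrially encoded genes took 22.4% (PX-478 2) to 36.7% (PX-478 1) of them. Hepatocyte markers were high in every library, from 34300 to 52400 summed CPM over 10 genes, as the tissue label says. Of these 10 genes, 7 were lower with PX-478, with a median log2 change of -0.19. Markers of macrophages were also mostly lower. Of 20, all detected in every library, 19 were lower with PX-478 (median log2 change -0.51), and edgeR called 0. An unadjusted p under 0.05 was reached by 9 that were lower, against 3.48% of all genes. Without overlap, 7 were lower, against 4.29% of all genes. The summed level of the 20 was 569, 724, 765 and 963 CPM in saline 1 to 4 and 477, 511 and 600 CPM in PX-478 1 to 3. The summed level of the 12 chemokines other than Cxcl1 and Cxcl12 was 48.4, 59, 65.8 and 76.4 CPM and 44.9, 65.1 and 56.4 CPM in the same libraries. The part of macrophage RNA in the chemokine values was not tested.

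The summed levels of macrophage markers overlapped between the groups, and so did those of every other marker list. Monocyte and neutrophil markers summed to 20 to 33.1 CPM in saline and 21.2 to 33 CPM in PX-478, over the 6 of 10 listed genes found in the table. T and NK cell markers summed to 7.11 to 18.2 and 9.34 to 13.8 CPM, and 8 of their 11 genes were at 0 in at least 1 library. B cell and dendritic cell markers ranged from 37.6 to 49.4 in saline and from 18.7 to 45.4 CPM in PX-478, with 6 of 7 tested genes lower. Sinusoidal endothelial markers ranged from 264 to 347 and from 314 to 413 CPM, and stellate cell markers from 211 to 253 and from 186 to 402 CPM, each with 8 of 10 genes higher. Cholangiocyte markers ranged from 95.7 to 151 and from 122 to 160 CPM.

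Added together, the 39 members gave 793, 761, 1130 and 1230 CPM in saline 1 to 4 and 840, 841 and 847 CPM in PX-478 1 to 3. The PX-478 libraries were nearly equal, above one pair of saline libraries and below the other. Il1r1 and Cxcl1 made up 36.1% and 42.4% of that sum in Saline 3 and Saline 4, and 14.8% to 24.6% in the other 5 libraries. Without these 2 genes the sums were 628, 648, 721 and 706 CPM in saline and 654, 657 and 639 CPM in PX-478, and the groups still overlapped. Saline 3 was the highest library for 13 members and Saline 4 for 8, while PX-478 3 was the lowest for 10.

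**Figure D3:**
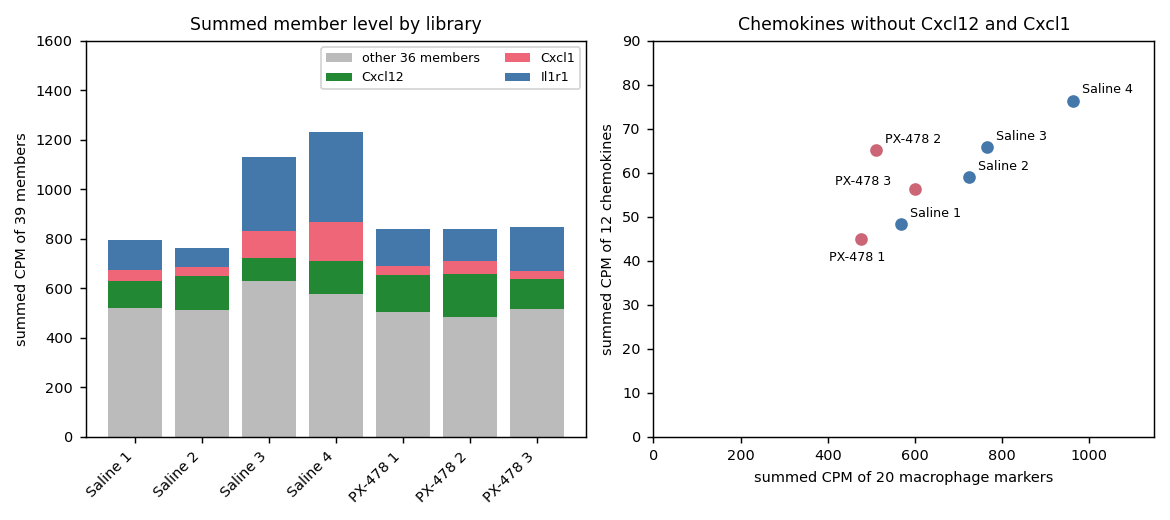
Left, summed CPM of the 39 members in each library (y axis), with the parts of Cxcl12, Cxcl1 and Il1r1 in colour. The Cxcl1 and Il1r1 parts are largest in Saline 3 and Saline 4. Right, summed CPM of 12 chemokines (y axis) against that of 20 macrophage markers (x axis), 1 point per library, with saline markers reaching 963 CPM and PX-478 markers at most 600 CPM.

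The members differed widely in depth. In 16 of the 39 every library had at least 100 reads, and in 9 (Il1b, Tnf, Il33, Ccl3, Ccl4, Ccl7, Cxcl2, Tlr4 and Nlrp3) every library had fewer than 50. Of the 20 tested members with a mean of at least 100 reads, 13 were lower and 7 higher, with a median log2 change of -0.21 and a range of -1.09 to 0.37. Of the 18 below that mean, 15 were lower and 3 higher, with a median of -0.42 and a range of -1.92 to 1.56. A floor of 3 reads corresponds to 0.188 to 0.26 CPM, depending on the library. It covers counting error only.

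**Figure D4:**
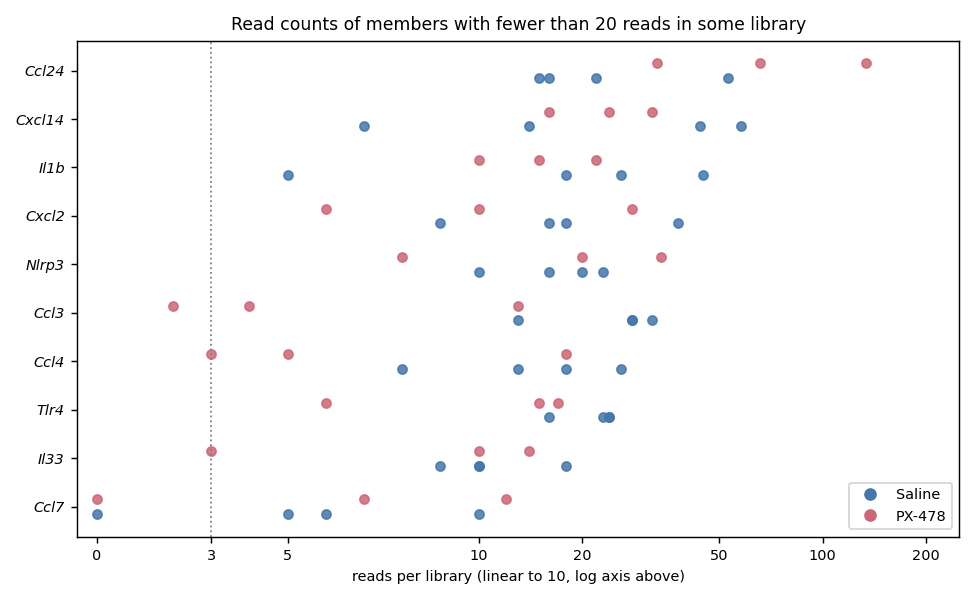
Reads per library (x axis, linear to 10 and logarithmic above) for the 10 members with fewer than 20 reads in some library, 1 point per saline or PX-478 library. Ccl3 is at 13 to 32 reads in saline and 2 to 13 in PX-478, Ccl24 reaches 134 reads in PX-478 3, and Ccl7 is at 0 in 1 library of each group.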

How the data were processed

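Liver RNA of 7 mice was sequenced, 4 given saline and 3 given PX-478, grouped and numbered by sample title. The authors deposited whole-number read counts per gene, not normalized. The submitters' processing notes name featureCounts, edgeR and mm10. The sources used here do not give the aligner. All 14889 genes exceeded 0.5 CPM in at least 2 of the 14 count columns. Per the file headers, the authors' test adds a log2 fold change and average log2 CPM, an F statistic (a score) and an unadjusted p-value. The 7 per-sample average columns and 4 group average or median columns were not used.

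The 2 columns of a sample differed by less than the sampling noise (chi-square per gene 0.291 to 0.765, against 49.1 to 145 between libraries of a group, over genes with more than 20 reads) and were counted as 1 sample, as their rounded mean. Genes were filtered with filterByExpr and scaled by TMM. They were tested with edgeR 4.0.16 (quasi-likelihood F, robust, no covariates), adjusted by Benjamini-Hochberg over 13693 genes at 0.05, in R 4.3.3. The biological coefficient of variation was 0.325. The test was tried on simulated data first. Alternatives used other scalings, no count filter, DESeq2 1.42.0, limma-voom (limma 3.58.1), a replicate block, other uses of the columns, no mitochondrially encoded genes, and each library left out.

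Members and lists were chosen with earlier results of these data known. Full values are given for members with an unadjusted p under 0.05 or without overlap and for the 2 smallest p of each role, and the 3 smallest p of each pathway list are named. Of the Entrez IDs, 14492 matched RefSeq's GRCm38.p6 table, which gave positions and promoter windows.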

Additional observations from a re-analysis of the deposited data

Results flagged for a closer look

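In 4 of the 38 tested members, 1 saline library lay far from the other 3, measured as its gap to the nearest library over the group's whole range, which exceeded Dixon's critical value. Chance flags about 1 in 20 groups. Il18 had a ratio of 0.887, with 11.6 CPM in Saline 1 and the next library at 8.52. Il15 had 0.97, with 7.63 CPM in Saline 2 against 3.88. For Il33 it was 0.942, with 1.56 CPM in Saline 2 against 0.651, from 18 and 10 reads. For Tnfaip3 it was 0.857, with 8.39 CPM in Saline 3 against 3.99. Of these, Il15 stood at a log2 change of 0.29 without Saline 2, and Tnfaip3 at -0.49 without Saline 3.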

How the results depend on the processing

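Over 17 alternatives and 38 members, 641 estimates were made: 612 kept the direction and side of the threshold, 25 had the opposite sign, and 26 members never did. With library totals only, 4 genes were called higher, 1 member was higher without overlap, the members' median was -0.09, and Il1a (0.04), Il15 (0.08), Nfkb2 (0.01) and Vcam1 (0.08) were above 0. DESeq2 called 46 genes higher and 37 lower, with 4 members lower at an unadjusted p under 0.05, and limma-voom called 0 lower, with Il15 at 0.05. A replicate block was fitted, although the labels do not say that equal numbers pair the samples. Deviations from the group mean correlated at -0.07 to 0 for equal numbers and at -0.08 to 0.17 for unequal ones, which cannot exclude shared handling. With the block, 1 gene was called higher and 2 lower, with 1 member lower and 2 higher at an unadjusted p under 0.05. It gave a CXC median of 0.03, and Cxcl14 (0.31), Tlr2 (0.04) and Il1r1 (0.1) were above 0. With all 14 columns as libraries, 643 genes were called higher and 717 lower, 4 members were called (Ccl3 at -1.87, Ccl6 at -1.04, Ccl24 at 1.56, Tnfaip3 at -0.9), with Map3k14 (-0.89) and Ifngr2 (-0.62), and 10 members were lower and 4 higher at an unadjusted p under 0.05. Leaving out 1 library gave 0 to 4 genes called higher and 1 to 3 lower, 2 to 5 members lower and 1 to 2 higher at an unadjusted p under 0.05, and 3 to 8 lower and 0 to 2 higher without overlap. The extremes of 8 and 5 came without PX-478 2 and without Saline 1. For the alternatives, the shares of all genes at an unadjusted p under 0.05 or without overlap were not computed. Groups with fewer libraries also separate more easily, so these member counts have no background to be read against. Log2 changes turned sign for Cxcl9 (-0.01) and Cxcl14 (0.19) without Saline 1, Il15 (0.29) without Saline 2, and Il1a (0.13), Birc3 (-0.16) and Vcam1 (0.12) without Saline 3. They also turned for Tlr2 (0.1) without Saline 4, Il1a (0.01), Il33 (0.01) and Birc3 (-0.07) without PX-478 1, and Il18 (-0.04), Il15 (0.1) and Nlrp3 (-0.29) without PX-478 2. Without PX-478 3 they turned for Il15 (0.07), Tlr2 (0.02), Birc3 (-0.02) and Vcam1 (0.1). Over the left-out libraries the other end of the range was -0.28 for Il15, 0.35 for Cxcl9, -0.61 for Cxcl14, -0.56 for Tlr2, 0.75 for Nlrp3, 0.22 for Birc3, -0.24 for Vcam1 and -0.97 for Il33. Beyond the smaller number of samples, the cause was not tested. Depth limits the 10 members with fewer than 20 reads in some library.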

Other observations

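Genes of the hepatic acute phase response, picked after the saline libraries were seen to differ, also varied among the saline mice. Saa1, serum amyloid A, held 67.4, 32.9, 66 and 364 CPM in saline 1 to 4 and 21.6, 38.3 and 38.4 CPM in PX-478 1 to 3. Socs3, the feedback inhibitor of interleukin-6 signalling, held 12.4, 11.9, 11 and 58.3 CPM and 7.52, 20 and 7.63 CPM. Both were highest in Saline 4, which was also the highest in Cxcl1, Il1r1 and Il1rn. Saline 3, which was second in Cxcl1 and Il1r1, was close to Saline 1 in both. In Hp, haptoglobin, and Orm2, an acid glycoprotein, it was second to Saline 4, at 5520 against 7040 CPM and 69.9 against 127 CPM, and above every PX-478 library. In Saa2 and Lbp, also picked, Saline 3 was below Saline 1, at 38.2 against 60 CPM and 49 against 53.8 CPM. Its Lbp level was below that of PX-478 3 too, at 59.4 CPM. Saa3, an amyloid A form of macrophages and other cells, held 127, 59.5, 108 and 93 CPM in saline and 31.6, 48.6 and 58.2 CPM in PX-478, without overlap, at a log2 change of -1.07 (SE 0.27, adjusted p = 0.358 by edgeR). Lcn2, lipocalin-2, stood at 61, 28.3, 37.9 and 116 CPM and at 14.9, 25.4 and 29.9 CPM, with a log2 change of -1.38 (SE 0.49, adjusted p = 0.643 by edgeR).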
